A study of Mus musculus with 2 samples.

Results

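Classical monocytes are the Ly6C-high monocytes that leave bone marrow for blood and enter inflamed tissue. They were compared here between 1 DOPAC library and 1 Control library of leukocytes from mouse melanoma, and most of the listed genes of the interferon gamma response were higher in DOPAC monocytes. The cells were selected on measured RNA, so the genes of the rule are given as a description. A barcode needed at least 2 UMIs of Lyz2, the lysozyme of myeloid cells, and at least 1 UMI of at least 2 of 5 monocyte genes (Ly6c2, Chil3, Hp, Vcan and F13a1). A UMI, or unique molecular identifier, marks 1 captured transcript. Barcodes with RNA that marks other cells were left out by limits on Ace plus Adgre4 (nonclassical monocytes), the C1q genes, Arg1 and Cxcl9 (macrophage states), Cd209a and Flt3 (dendritic cells), Csf3r (neutrophils), the Cd3 genes (T cells) and Cd79a (B cells). The rule found 675 cells among the 18539 that passed the filters on UMIs, genes and mitochondrial RNA, of 20406 barcodes in all. The DOPAC library held 234 of them and the Control library 441.

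The study grew B16-F10, a mouse melanoma line, in mice and sorted CD45-positive cells, that is leukocytes, from the tumors for droplet sequencing. Mice received DOPAC, a breakdown product of dopamine, or vehicle, which the sample labels call Control, and both groups carried the wild-type genotype. The design text gives 4 mice per group, but each group came as 1 library in which no tag ties a cell to a mouse, so the library was the sample and no difference could be checked on replicates. The extraction protocol mentions colon, but the samples are taken as tumor here, as the tissue label and design text have it. The cell type label calls the sorted cells lymphocytes, although myeloid cells were present in both libraries.

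As background, classical monocytes reach tumors along chemokines that bind CCR2. In the tissue they can turn into macrophages, into cells with features of dendritic cells, or into suppressive cells, and they lose Ly6c2 and other monocyte genes as they do so. Interferon gamma, made mainly by T cells and NK cells, acts on them through factors that include IRF1 and switches on guanylate-binding proteins, immunity-related GTPases, chemokines for T cells and antigen presentation, while type I interferons act through a complex that includes IRF9.

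The depth differed between the libraries and bears on every value below. The DOPAC library held 47769958 UMIs over 10777 barcodes and the Control library 100938364 UMIs over 9629 barcodes. Classical monocytes had a median of 3861 UMIs and 1538.5 genes in DOPAC, against 10906 UMIs and 2979 genes in Control, and mitochondrial RNA made up a median of 3.03% and 2.96% of their UMIs. Levels are given as CPM, the count per 1000000 UMIs, of the UMIs summed over the monocytes of a library, which came to 945755 in DOPAC and 5043699 in Control. All intervals in parentheses are exact 95% intervals that cover counting error only, and no test or p-value is given because each group is 1 library. Both libraries shared 32 barcodes, of which 4 were among the DOPAC monocytes and 2 among the Control monocytes.

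The label was checked against markers of monocytes and of other cells. The genes of the rule were all present, as they had to be. Lyz2 stood at 6963 CPM in DOPAC and 10300 CPM in Control. Ly6c2, which gives the cells their surface name, stood at 836 CPM (779 to 897) in DOPAC monocytes, against 338 CPM (322 to 354) in Control, while Chil3, a chitinase-like protein of young monocytes, stood at 539 CPM and 799 CPM. Hp stood at 101.5 CPM in DOPAC and 159.8 CPM in Control, Vcan at 577 CPM and 666 CPM, and F13a1 at 610 CPM and 675 CPM. Of the 5 monocyte genes of the rule, only Ly6c2 was thus higher in DOPAC. Ly6c2 and its neighbour Ly6c1 have transcripts that are 97.6% identical, so reads may have been split between them. Of the 14 monocyte genes outside the rule, none was at 0 in either library, and their summed level was 10040 CPM in DOPAC and 6567 CPM in Control. Cells with 2, 3, 4 or all 5 of the monocyte genes made up 40.2%, 32.9%, 18.8% and 8.12% of the DOPAC cells. In Control they made up 24.5%, 23.1%, 25.4% and 27.0%. Just outside the rule, with 1 of the 5 genes and all other limits met, lay 64 DOPAC and 155 Control barcodes.

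RNA of other cell types was present in the gated cells, and its level differed between libraries for several types. The 7 macrophage markers outside the rule summed to 978 CPM in DOPAC and 1704 CPM in Control. The 8 nonclassical monocyte markers summed to 339 CPM and 370 CPM, and the 4 markers of type 1 dendritic cells to 229 CPM and 246 CPM. The 8 neutrophil markers outside the rule summed to 48.6 CPM in DOPAC, with 5 of them at 0 (Cxcr2, Retnlg, Mmp9, G0s2 and Ly6g), and to 123 CPM in Control, with Ly6g at 0. The 4 T-cell markers summed to 87.8 CPM in DOPAC and 22.2 CPM in Control, and the 5 NK-cell markers to 339 CPM and 207 CPM. The 5 melanoma markers summed to 4.23 CPM in DOPAC, with Pmel and Tyr at 0, and to 118 CPM in Control. The 5 erythroid markers summed to 1.06 CPM and 41.0 CPM, and the 4 markers of plasmacytoid dendritic cells to 8.46 CPM and 94.8 CPM. The part of this RNA in the differences below was not tested.

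Classical monocytes were a smaller share of the DOPAC leukocytes. They made up 2.32% of cells in DOPAC (2.03 to 2.63) and 5.22% in Control (4.76 to 5.72), a difference of -2.91 percentage points (-3.47 to -2.35, Newcombe interval). A share of all cells also moves with the other cells, and T cells, taken by their own marker rule, made up 31.4% of the DOPAC library and 4.58% of the Control library. Among the cells of the classical, nonclassical and C1q-high macrophage rules together, classical monocytes were the larger share in DOPAC, 234 of 385 cells (60.8%, 55.7 to 65.7), against 441 of 1034 cells in Control (42.7%, 39.6 to 45.7). The difference there was 18.1 points (12.3 to 23.7). The other rules need raw counts, at least 3 C1q UMIs or more than 1 UMI of Ace plus Adgre4, which shallower cells reach less easily. This share was not recomputed at equal depth. Among cells of 3000 to 8000 UMIs in both libraries, a range chosen after seeing the data, the share of all cells was 3.57% in DOPAC and 2.13% in Control, the opposite direction. With the rule applied to barcodes thinned to 1000 UMIs it was 1.82% in DOPAC and 4.86% in Control, the same direction as in all cells.

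Expression was compared over the 9689 genes that had 20 or more UMIs when the sums of both libraries were added. A gene was called apart at 1.5-fold, on log2 ratios of DOPAC over Control with 1 count added to each sum. By that rule 1318 genes (13.6%) were higher in DOPAC and 2066 genes (21.3%) were lower, and the median over all genes was -0.08. These shares are the background against which each group below is read. Of the called genes, 306 were also at least 1.5-fold apart in the same direction in T cells and in NK cells. Such genes are called library-wide below.

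**Figure D1:**
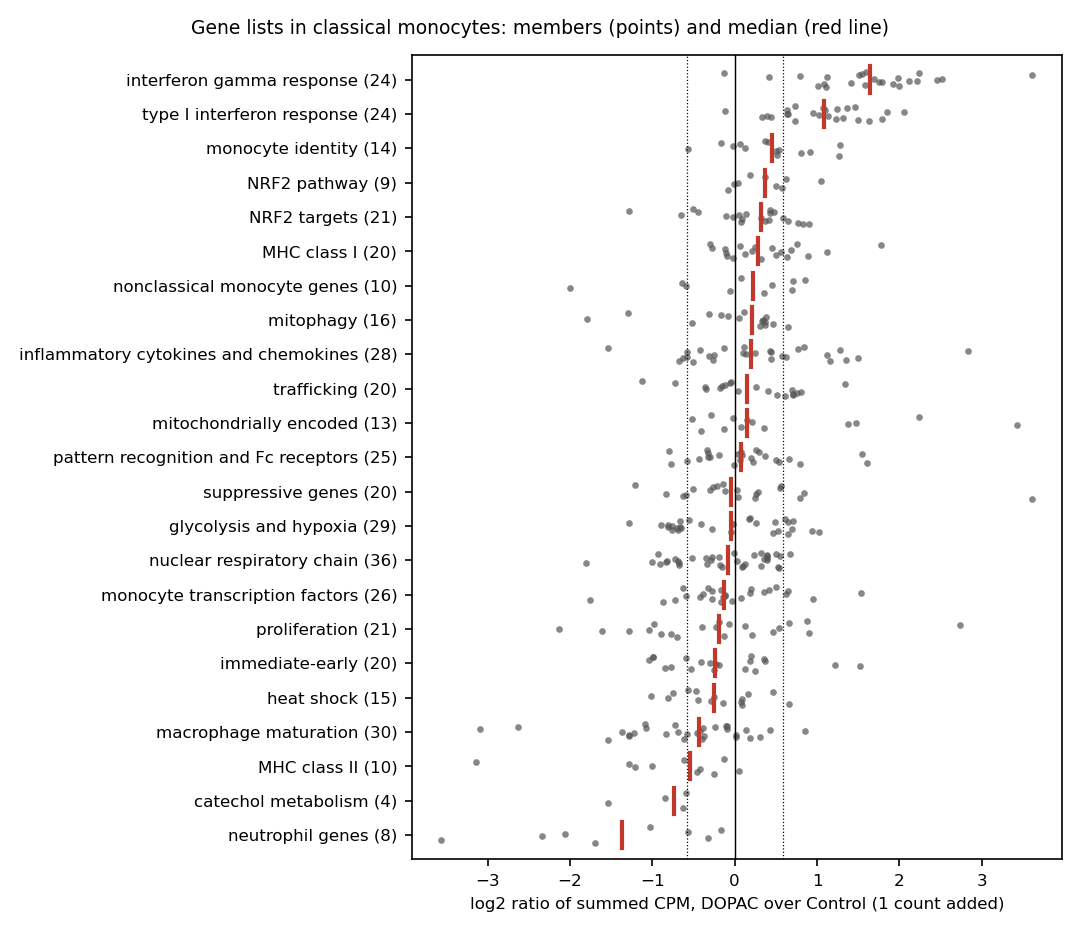
Log2 ratios of DOPAC over Control in classical monocytes, with 1 row per gene group. Points are group members with at least 20 UMIs (their number in parentheses), red lines are medians, and dotted lines mark 1.5-fold. The interferon gamma genes lie mostly right of the 1.5-fold line (median 1.64), and the macrophage maturation genes mostly left of 0 (median -0.44).

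The identity genes that the rule did not use were on balance higher in DOPAC monocytes. Of 14 such genes, 4 were at least 1.5-fold higher, against 13.6% of all genes, and none was lower. Their median log2 ratio was 0.45. A rise was not particular to classical monocytes. By their own marker rules, the median was -0.06 in nonclassical monocytes, 0.45 in C1q-high macrophages and 0.73 in Cd209a-positive dendritic cells. It was -0.25 in T cells, 0.59 in NK cells and 1.39 in B cells, of which DOPAC had 12. Plac8, a small cysteine-rich protein abundant in Ly6C-high monocytes, had 4049 CPM (3921 to 4179) in DOPAC monocytes, against 1678 CPM (1642 to 1714) in Control, which is 2.41-fold higher (2.32 to 2.51). It lies at chromosome 5, 100553725 to 100572245, on the minus strand of GRCm38. Plac8 was also higher in the DOPAC T cells, at 870 CPM against 202 CPM, so it belonged to the library-wide genes. Ms4a4c, a membrane protein of the MS4A family, had 633 CPM in DOPAC and 335 CPM in Control, and Ly6i, of the Ly6 family, 71.9 CPM and 29.9 CPM. Ccr2, the chemokine receptor that brings these cells out of the marrow, had 621 CPM (572 to 673) in DOPAC monocytes, against 434 CPM (416 to 452) in Control, a ratio of 1.43 (1.30 to 1.57) that stayed under the threshold. Fn1, fibronectin, was the lowest of the group, with 352 CPM in DOPAC and 524 CPM in Control, a log2 ratio of -0.57. With the rule applied to barcodes thinned to 1000 UMIs, which left 176 DOPAC and 405 Control cells, the median of the group was 0.12.

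Genes of the interferon gamma response were higher together in DOPAC monocytes. Of 24 measured members, 22 were at least 1.5-fold higher and none was lower, with a median log2 ratio of 1.64, against 13.6% of all genes higher and a median of -0.08. The median was 1.11 with the rule applied to thinned barcodes and 0.89 with both the rule and the sums on thinned cells. The exceptions were Socs1, which curbs the pathway, with 27.5 CPM in DOPAC and 21.2 CPM in Control, and Ciita, the switch of MHC class II, with 21.1 CPM and 24.2 CPM. Summed over the group, the level was 4018 CPM in DOPAC and 1626 CPM in Control.

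The immunity-related GTPases, which attack vacuoles that hold microbes, were higher in DOPAC. Irgm1 had 143 CPM (120 to 169) in DOPAC monocytes, against 26.0 CPM (21.7 to 30.8) in Control, 5.50-fold higher (4.29 to 7.04). Igtp had 58.2 CPM in DOPAC and 13.5 CPM in Control, 4.31-fold higher (2.97 to 6.25), and Ifi47 had 149 CPM and 37.9 CPM, 3.94-fold higher (3.14 to 4.92). Tgtp2 rested on 13 UMIs in DOPAC and 12 in Control, and its transcript is 99.8% identical to that of Tgtp1, so its value is uncertain.

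The guanylate-binding proteins, which coat and break open such vacuoles, showed the same direction. Gbp2 had 487 CPM (444 to 534) in DOPAC monocytes, against 122 CPM (112 to 132) in Control, 4.00-fold higher (3.54 to 4.53). Gbp4 had 82.5 CPM in DOPAC and 21.8 CPM in Control, and Gbp7 had 153 CPM and 44.6 CPM. Gbp5, which promotes inflammasome assembly, had 177 CPM in DOPAC and 83.7 CPM in Control, 2.11-fold higher (1.75 to 2.53). These genes are close copies in clusters on chromosomes 3 and 5, so reads may have been split between neighbours.

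Further members act in signalling, T-cell attraction and effector function. Irf1, a transcription factor of the response, had 261 CPM in DOPAC and 130 CPM in Control, 2.01-fold higher (1.73 to 2.33). Cxcl10, the chemokine that draws CXCR3-bearing T cells, was the most abundant member, with 1045 CPM (980 to 1112) in DOPAC monocytes, against 480 CPM (461 to 499) in Control, 2.18-fold higher (2.02 to 2.35). Nos2, which makes nitric oxide, rested on few counts, 22 UMIs in DOPAC and 9 in Control, which gives the largest log2 ratio of the group, 3.62. Il18bp, which binds interleukin-18, had 37 UMIs in DOPAC and 42 in Control, a log2 ratio of 2.24. Cd274, which encodes the checkpoint ligand PD-L1, had 554 CPM in DOPAC and 320 CPM in Control, 1.73-fold higher (1.56 to 1.91).

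The promoters of the listed interferon gamma genes were read from RefSeq (GRCm38.p6, 250 bases before to 50 after the start, 1 window per start). The motifs sought on both strands were the interferon-stimulated response element, which is GAAA, any 2 bases and GAAA, and the gamma-activated site, spelled TTCNNNGAA. The first letters were in 12 of the 17 interferon gamma genes found in the table (70.6%), against 1079 of 27025 genes in all (3.99%), and the second in 8 of 17 (47.1%), against 2582 genes (9.55%). Of the 10 identity genes found, none held the first and 3 held the second. Windows were found for 17 of the 26 listed interferon gamma genes. The genes were listed as interferon targets, so their share of matches does not depend on these libraries. It is no support for the difference between them. A match is a description of the letters and shows no binding. The 5 windows below are of some of the GTPases, guanylate-binding proteins and chemokines given above, and all 5 hold a match. The window of Ifi47, a GTPase also given above, holds neither motif and is not printed. Windows run 5′ to 3′ along each gene's strand, with motif matches on either strand in capitals. Irgm1 holds 2 overlapping matches to the first motif, and Igtp holds both motifs 2 bases apart. Irgm1 lies at chr11:48871371-48871670 (minus strand), Igtp at chr11:58199306-58199605 (plus), Gbp5 at chr3:142496684-142496983 (plus), Gbp2 at chr3:142620413-142620712 (plus) and Cxcl10 at chr5:92348840-92349139 (minus).
Irgm1: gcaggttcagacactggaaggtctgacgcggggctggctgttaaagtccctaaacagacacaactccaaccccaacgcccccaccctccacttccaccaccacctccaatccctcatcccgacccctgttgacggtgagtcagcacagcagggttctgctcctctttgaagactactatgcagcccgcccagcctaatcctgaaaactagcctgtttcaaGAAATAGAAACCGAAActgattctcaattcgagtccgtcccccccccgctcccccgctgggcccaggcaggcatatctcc
Igtp: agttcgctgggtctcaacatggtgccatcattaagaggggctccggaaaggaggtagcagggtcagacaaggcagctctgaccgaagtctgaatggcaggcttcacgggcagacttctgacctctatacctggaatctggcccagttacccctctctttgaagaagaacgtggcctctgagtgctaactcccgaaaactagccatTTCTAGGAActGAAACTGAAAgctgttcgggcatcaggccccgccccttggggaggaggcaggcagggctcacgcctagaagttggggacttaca
Gbp5: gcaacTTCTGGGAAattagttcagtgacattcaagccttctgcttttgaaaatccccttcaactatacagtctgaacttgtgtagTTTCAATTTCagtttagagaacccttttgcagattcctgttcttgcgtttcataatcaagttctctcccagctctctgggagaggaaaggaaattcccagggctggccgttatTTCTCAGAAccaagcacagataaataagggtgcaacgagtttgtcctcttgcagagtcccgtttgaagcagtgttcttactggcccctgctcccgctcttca
Gbp2: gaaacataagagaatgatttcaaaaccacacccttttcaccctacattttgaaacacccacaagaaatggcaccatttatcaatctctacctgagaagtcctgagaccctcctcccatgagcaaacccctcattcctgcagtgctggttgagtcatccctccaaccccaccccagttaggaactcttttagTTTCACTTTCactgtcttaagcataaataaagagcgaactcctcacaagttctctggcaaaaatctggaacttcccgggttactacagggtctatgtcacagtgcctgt
Cxcl10: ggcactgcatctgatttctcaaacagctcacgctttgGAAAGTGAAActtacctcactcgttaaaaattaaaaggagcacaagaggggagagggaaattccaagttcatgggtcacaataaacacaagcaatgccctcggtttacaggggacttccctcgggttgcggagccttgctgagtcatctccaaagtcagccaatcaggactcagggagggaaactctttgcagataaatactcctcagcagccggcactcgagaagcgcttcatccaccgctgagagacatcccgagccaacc

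**Figure D2:**
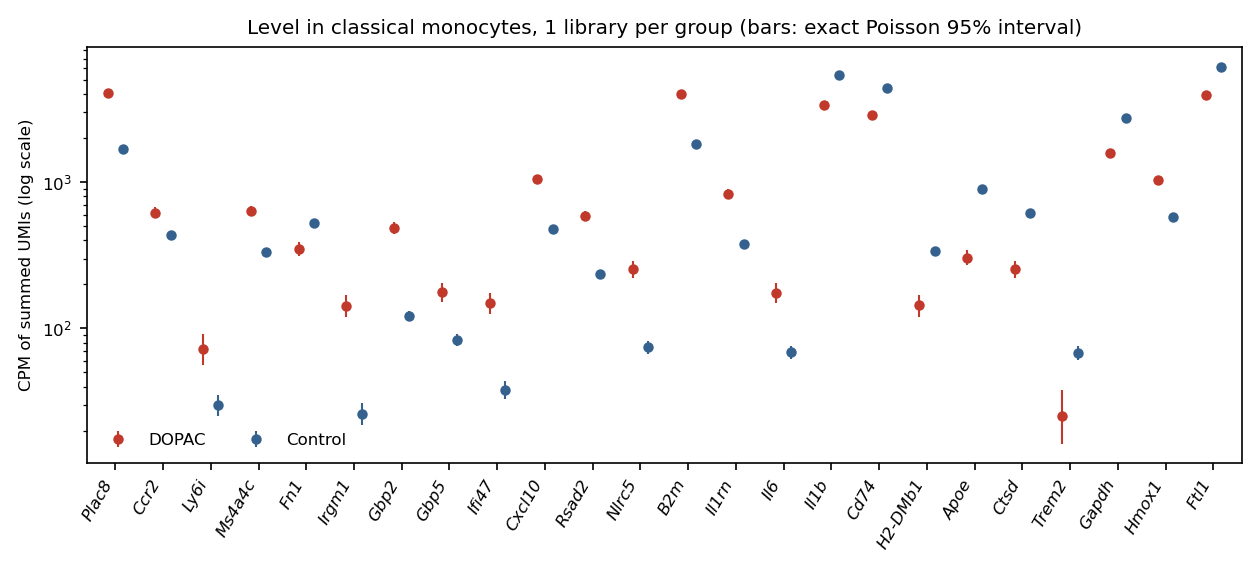
Level of 24 genes in classical monocytes as CPM of the summed UMIs on a log scale, with DOPAC in red left of Control in blue and exact Poisson 95% intervals as bars. Irgm1 (143 against 26.0 CPM) and Gbp2 (487 against 122 CPM) stand far apart, and Apoe (306 against 892 CPM) and Ctsd (254 against 619 CPM) lie the other way.

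Genes of the type I interferon response were also higher. Of 24 measured members, 20 were at least 1.5-fold higher in DOPAC and none was lower, with a median log2 ratio of 1.09. Rsad2, the antiviral protein viperin, had 589 CPM (541 to 640) in DOPAC monocytes, against 236 CPM (223 to 250) in Control, 2.49-fold higher (2.25 to 2.76). Its neighbour on chromosome 12, Cmpk2, had 59.2 CPM in DOPAC and 16.5 CPM in Control. Ifit2, an antiviral RNA-binding protein, had 114 CPM in DOPAC and 33.1 CPM in Control, 3.45-fold higher (2.68 to 4.42). Isg15, a protein tag like ubiquitin, had 756 CPM in DOPAC and 455 CPM in Control, 1.66-fold higher (1.52 to 1.81). Ifih1, a sensor of double-stranded RNA, did not differ beyond counting error, with 350 CPM (313 to 390) in DOPAC monocytes, against 382 CPM (365 to 399) in Control. The first promoter motif was in 12 of 21 of these genes and the second in 3. Isg20, a nuclease, had 82.5 CPM in DOPAC and 26.8 CPM in Control, and Ifi44 rested on 13 and 17 UMIs. With the rule applied to thinned barcodes the median of the group was 0.68.

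The antigen presentation groups split. For MHC class I, 6 of 20 members were higher in DOPAC and none was lower, with a median of 0.28. Nlrc5, the switch of class I genes, had 254 CPM (223 to 288) in DOPAC monocytes, against 74.3 CPM (67.0 to 82.3) in Control, 3.41-fold higher (2.89 to 4.02), and was library-wide. B2m, the light chain of class I, had 4003 CPM in DOPAC and 1833 CPM in Control, 2.18-fold higher (2.10 to 2.27). The heavy chains H2-K1, with 952 CPM in DOPAC and 764 CPM in Control, and H2-D1, with 1075 CPM and 1090 CPM, stayed under the threshold. Among the higher members were H2-Q6, with 103 CPM in DOPAC and 55.7 CPM in Control, and Erap1, which trims peptides, with 51.8 CPM and 31.1 CPM. Reads of these and the H2-Q genes may have been split among near copies.

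For MHC class II, 5 of 10 members were at least 1.5-fold lower in DOPAC, against 21.3% of all genes. None was higher, and the median was -0.54. Cd74, the invariant chain, had 2875 CPM (2768 to 2985) in DOPAC monocytes, against 4418 CPM (4360 to 4477) in Control, lower by a factor of 1.54 (1.48 to 1.60). H2-DMb1, which helps to load peptides, had 144 CPM in DOPAC and 336 CPM in Control, lower by a factor of 2.34 (1.96 to 2.80), as it also was in T cells and NK cells. H2-Ab1, a peptide-binding chain, had 1399 CPM in DOPAC and 1921 CPM in Control, and H2-Eb1, another such chain, had 1159 CPM and 1120 CPM. H2-Ob had 0 UMIs in DOPAC and 46 in Control, which is at least 2.88-fold lower against a floor of 3 counts. H2-DMb2 and H2-Oa, further genes of peptide loading, rested on 9 and 2 UMIs in DOPAC, against 106 and 38 in Control. In cells of 3000 to 8000 UMIs the median of the group was -0.10.

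Secreted factors moved in both directions. Of 28 measured cytokines, chemokines and related enzymes, 9 were higher in DOPAC and 3 were lower, with a median of 0.19. The direction of the median turned, to -0.24, with at least 3 of the 5 monocyte genes required, and it was 0.80 in cells of 3000 to 8000 UMIs. Il15, which sustains NK cells and CD8 T cells, had 190 CPM (164 to 220) in DOPAC monocytes, against 67.4 CPM (60.4 to 74.97) in Control, 2.82-fold higher (2.34 to 3.39). Il6 had 174 CPM in DOPAC and 68.6 CPM in Control, 2.54-fold higher (2.10 to 3.07). Il1rn, the antagonist of the interleukin-1 receptor, had 835 CPM in DOPAC and 376 CPM in Control, 2.22-fold higher (2.04 to 2.42) and library-wide, whereas Il1b itself had 3353 CPM and 5378 CPM and was lower by a factor of 1.60 (1.55 to 1.67). Ptgs2, the inducible cyclooxygenase that makes prostaglandins, had 1377 CPM in DOPAC and 769 CPM in Control, 1.79-fold higher (1.68 to 1.91). Il10, an anti-inflammatory cytokine, had 114 CPM in DOPAC and 178 CPM in Control, lower by a factor of 1.56 (1.28 to 1.93). In cells of 3000 to 8000 UMIs both Il1b and Il10 lay the other way, with log2 ratios of 0.29 and 0.43. Cxcl2, a neutrophil attractant, was the most abundant of the group, with 15260 CPM in DOPAC and 10230 CPM in Control, a ratio of 1.49 just under the threshold.

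Single cells carried some of the chemokine values. Ccl8 had 133 CPM in DOPAC and 18.6 CPM in Control, but 120 of its 126 DOPAC UMIs lay in 1 cell, and with at least 3 of the 5 monocyte genes required its log2 ratio was -1.77. Pf4, a chemokine of platelets and some macrophages, had 108 CPM in DOPAC and 317 CPM in Control, was library-wide, and held 92.2% of its UMIs in the 5 richest cells in DOPAC and 47.2% in Control. Ccl12, a CCR2 ligand, was spread more widely, with a UMI in 72 DOPAC cells and 130 Control cells, and had 402 CPM and 166 CPM. For comparison, the 5 richest cells held 11.9% of the Irgm1 UMIs in DOPAC and 16.8% in Control.

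Receptors for microbes and antibodies were mostly level. Of 25 measured, 4 were higher in DOPAC and 2 were lower, with a median of 0.08. Fcgr4, a receptor for IgG, had 227 CPM in DOPAC and 78.1 CPM in Control, 2.91-fold higher (2.45 to 3.44), Tlr6, a partner of Tlr2, had 41.2 CPM and 13.7 CPM, and Tlr4, the endotoxin receptor, had 59.2 CPM and 34.5 CPM. Fpr1, a receptor for bacterial peptides, rested on 3 UMIs in DOPAC and 36 in Control. Tlr2, the receptor for lipopeptides, had 158 CPM in DOPAC and 270 CPM in Control, lower by a factor of 1.71 (1.45 to 2.04). Of 20 genes of trafficking, 7 were higher and 2 were lower, with a median of 0.15. Among those higher was Cxcr4, which holds cells in the marrow, with 58.2 CPM in DOPAC and 34.7 CPM in Control. Itgal, the integrin chain of LFA-1, had 135 CPM in DOPAC and 83.7 CPM in Control, but lay the other way (log2 ratio -0.45) in cells of 3000 to 8000 UMIs. Cxcr4 did so too, with a log2 ratio of -0.37 there. S1pr1 (9 and 20 UMIs in DOPAC and Control) and Pecam1 (8 and 104 UMIs) were measured on few counts.

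Of 26 transcription factors, 4 were higher in DOPAC and 5 were lower, with a median of -0.13. Maf, which shapes macrophages, had 374 CPM (336 to 415) in DOPAC monocytes, against 130 CPM (120 to 140) in Control, 2.89-fold higher (2.53 to 3.29). Klf4, needed for the monocyte fate, had 187 CPM in DOPAC and 97.2 CPM in Control, 1.93-fold higher (1.61 to 2.29). Spi1, which encodes PU.1, the central factor of myeloid cells, had 232 CPM in DOPAC and 424 CPM in Control, lower by a factor of 1.83 (1.59 to 2.11). Irf8, a factor of monocytes and dendritic cells, was within the threshold, with 161 CPM in DOPAC and 182 CPM in Control. Irf4 rested on 5 UMIs in DOPAC and 107 in Control.

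Genes of the step to macrophages were lower on balance. Of 30 measured, 13 were at least 1.5-fold lower in DOPAC and 1 was higher, with a median of -0.44, against 21.3% of all genes lower. Apoe, a lipid carrier secreted by macrophages, had 306 CPM (271 to 343) in DOPAC monocytes, against 892 CPM (866 to 918) in Control, lower by a factor of 2.92 (2.59 to 3.30). It was also lower in the DOPAC T cells, with 10.8 CPM against 70.0 CPM, and so was library-wide. Ctsd, a lysosomal protease, had 254 CPM in DOPAC and 619 CPM in Control, lower by a factor of 2.44 (2.14 to 2.79), and in T cells stood at 200.2 CPM and 166 CPM. Trem2, a lipid receptor of tumor macrophages, had 25.4 CPM in DOPAC and 68.0 CPM in Control, and Gpnmb, a glycoprotein of lipid-laden macrophages, had 46.5 CPM and 111 CPM. With both the rule and the sums on thinned cells, Trem2 had 7 UMIs in DOPAC and 17 in Control and Gpnmb 8 and 18, with log2 ratios of 0.03 and 0.12. Fabp4, a fatty-acid carrier, was the 1 higher member. It rested on 21 UMIs in DOPAC, 90.5% of them in 5 cells, and lay the other way under 4 alternatives, with log2 ratios of -0.10 to -1.27. Csf1r, the receptor of the macrophage growth factor, had 306 CPM in DOPAC and 302 CPM in Control. Folr2 and Cd81 each had 1 UMI in DOPAC, against 65 and 90 in Control. In cells of 3000 to 8000 UMIs the median of the group was -0.16. The lower level was not particular to classical monocytes. By their own marker rules, the median was -0.34 in nonclassical monocytes, -0.30 in C1q-high macrophages and -0.74 in Cd209a-positive dendritic cells. It was -0.82 in T cells and -0.27 in NK cells, but 0.67 in B cells, of which DOPAC had 12.

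Genes for glycolysis and hypoxia moved in both directions. Of 29 measured, 7 were higher in DOPAC and 11 were lower, with a median of -0.04. Among the lower ones were the glycolytic enzymes Gapdh, with 1573 CPM in DOPAC and 2762 CPM in Control, lower by a factor of 1.75 (1.66 to 1.85), and Pkm, with 568 CPM and 999 CPM, lower by a factor of 1.76 (1.61 to 1.93). Eno1, an enolase, had 292 CPM in DOPAC and 546 CPM in Control, and Pdk1 rested on 5 and 77 UMIs. Hif1a, the oxygen-regulated factor, had 386 CPM in DOPAC and 247 CPM in Control, 1.56-fold higher (1.39 to 1.76), and Hk3, a hexokinase of myeloid cells, had 110.0 CPM and 57.5 CPM, 1.91-fold higher (1.51 to 2.40). Slc2a3, a glucose carrier, rested on 12 UMIs in DOPAC and 33 in Control.

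NRF2 is the factor that guards cells against oxidants and electrophiles, and KEAP1 marks it for decay. Of 21 measured target genes, 4 were higher in DOPAC and 2 were lower, with a median of 0.33. Hmox1, which degrades heme, had 1028 CPM (964 to 1094) in DOPAC monocytes, against 576 CPM (556 to 598) in Control, 1.78-fold higher (1.66 to 1.92). Also higher were Gclm and Gclc, the subunits of the enzyme that starts glutathione synthesis, and the cystine carrier Slc7a11. Gclm had 128 CPM in DOPAC and 68.6 CPM in Control, Gclc had 108 CPM and 63.6 CPM, and Slc7a11 had 1289 CPM and 825 CPM. Gsr, which regenerates glutathione, stayed under the threshold, with 281 CPM in DOPAC and 264 CPM in Control. Tkt, a transketolase, had 115 CPM in DOPAC and 284 CPM in Control and Ftl1, the ferritin light chain, had 3919 CPM and 6176 CPM, so these targets lay the other way, although Ftl1 had a log2 ratio of 0.16 in cells of 3000 to 8000 UMIs. Fth1, the heavy chain, stayed under the threshold, with a log2 ratio of 0.14. Nfe2l2, which encodes NRF2, had 322 CPM in DOPAC and 342 CPM in Control. Of the 9 genes of the pathway itself, 2 were higher and none was lower, namely Mafk, with 69.8 CPM in DOPAC and 34.1 CPM in Control, and Bach1, which competes with NRF2, with 375 CPM and 244 CPM.

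Of 16 mitophagy genes, 1 was higher in DOPAC and 2 were lower, with a median of 0.22. Bnip3, a mitophagy receptor, had 116 CPM in DOPAC and 74.9 CPM in Control, but lay the other way under 3 alternatives, with log2 ratios of -0.026 to -0.64. Fkbp8, another receptor, had 33.8 CPM in DOPAC and 85.4 CPM in Control and was library-wide. Of 36 nuclear genes of the respiratory chain, 1 was higher and 10 were lower, with a median of -0.08, and Sdhb, of complex II, had 63.4 CPM in DOPAC and 129 CPM in Control. Atp5b, of the ATP synthase, had 161 CPM in DOPAC and 308 CPM in Control, and Ndufv1, of complex I, had 10.6 CPM and 40.6 CPM. Of 13 genes encoded in mitochondria, 4 were higher and none was lower. The furthest was mt-Nd4l, with 602 CPM in DOPAC and 55.5 CPM in Control, which was library-wide, standing at 929 CPM and 57.5 CPM in T cells. The other 3 higher ones, mt-Atp8, mt-Nd6 and mt-Nd5, were library-wide as well, and mt-Nd5 had 1008 CPM in DOPAC and 388.8 CPM in Control. Both measured metallothioneins stayed under the threshold, with a median of 0.39. Of 16 genes of catechol metabolism and dopamine receptors, 4 had 20 UMIs. All 4 were lower in DOPAC, with a median of -0.74, against 21.3% of all genes lower. Of these, Aldh2, a mitochondrial aldehyde dehydrogenase, had 49.7 CPM in DOPAC and 91.2 CPM in Control. Akr1a1, an aldehyde reductase, had 243 CPM in DOPAC and 368 CPM in Control, and Comtd1 rested on 3 and 61 UMIs. Comtd1 thus reached 20 UMIs through the deeper Control sum, so the count of 4 describes the filter as well as the cells.

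Further groups were read in the same way. Of 20 immediate-early genes, 2 were higher in DOPAC and 6 were lower, with a median of -0.24. Egr1 had 406 CPM in DOPAC and 141 CPM in Control, 2.88-fold higher (2.53 to 3.26), and Nfkbia, the inhibitor of NF-kB, had 1375 CPM and 2740 CPM and was library-wide. Btg2 and Dusp2 were also lower and library-wide, with 167 and 57.1 CPM in DOPAC and 335 and 119 CPM in Control, while Egr3 rested on 9 and 22 UMIs. Of 15 heat shock genes, 1 was higher and 3 were lower (median -0.26). Hspa1b, an inducible chaperone, had 363 CPM in DOPAC and 230.4 CPM in Control but a log2 ratio of -1.13 in cells of 3000 to 8000 UMIs, whereas Hspd1, of mitochondria, had 65.6 CPM and 117 CPM, and Dnajb1 39.1 CPM and 67.2 CPM, with Hspb1 at 11 and 128 UMIs. Of 21 genes of proliferation, 4 were higher and 8 were lower (median -0.19), and Mki67 had 18 UMIs in DOPAC and 164 in Control. Ccnb1, a cyclin, had 14 UMIs in DOPAC and 11 in Control. The replication genes Mcm2, Mcm3 and Mcm6 had 1, 2 and 1 UMIs in DOPAC, against 25, 48 and 46 in Control. These replication genes reached 20 UMIs through the deeper Control sum, so the count of 8 describes the filter as well as the cells. Of 20 genes of suppressive myeloid cells, 3 were higher and 4 were lower (median -0.04). Among them the T-cell costimulator Cd80 had 53.9 CPM in DOPAC and 127 CPM in Control, and Tgfbi, a matrix protein, 449 CPM and 802 CPM, and was library-wide. Of 10 measured genes of nonclassical monocytes, 3 were higher and 3 were lower (median 0.22), among them Cx3cr1, the fractalkine receptor, with 55.0 CPM in DOPAC and 34.1 CPM in Control, Fabp4, with 22.2 CPM and 12.7 CPM, and Ear2, with 5 and 127 UMIs. Of 17 neutrophil genes, 8 reached 20 UMIs, several of them only through the deeper Control sum, which sets their direction. Of these 8, 5 were lower in DOPAC and none was higher, so this count is a description of the filter as well as of the cells. Their median was -1.37, or -0.87 with G0s2, which had no UMI in DOPAC, at its bound. S100a8, a calcium-binding protein of neutrophils, rested on 11 UMIs in DOPAC and 207 in Control, of which 90.9% and 60.9% lay in the 5 richest cells. S100a9, its partner, had 1 UMI in DOPAC and 125 in Control, and Lcn2, an iron-scavenging protein, 3 and 88.

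The interferon difference was spread over many single cells. Each monocyte was thinned to 1000 UMIs to equal the depth, which left out 3 shallower cells in each library. The 26 interferon gamma genes then gave a median of 3 UMIs per cell in 231 DOPAC cells (quartiles 2 and 6) and of 1 UMI in 438 Control cells (quartiles 0 and 2). The group was without a UMI in 6.93% of the DOPAC monocytes and in 37.4% of the Control monocytes. Gbp2 had a UMI in 30.3% of DOPAC monocytes and 7.31% of Control monocytes after thinning, and in 64.1% and 28.3% before it. In T cells thinned alike, which give a background from free RNA and their own low level, Gbp2 had a UMI in 4.35% in DOPAC and 2.07% in Control, and before thinning in 16.4% and 11.9%, at median depths of 4048 and 5882 UMIs. Cxcl10 had a UMI in 40.7% of thinned DOPAC monocytes and 16.4% of thinned Control monocytes, against 5.95% of DOPAC T cells and 4.14% of Control T cells. Before thinning it was in 60.3% of DOPAC monocytes and 50.6% of Control monocytes. The MHC class II genes had a median of 2 UMIs in DOPAC cells and 3 in Control cells, with maxima of 55 and 67.

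**Figure D3:**
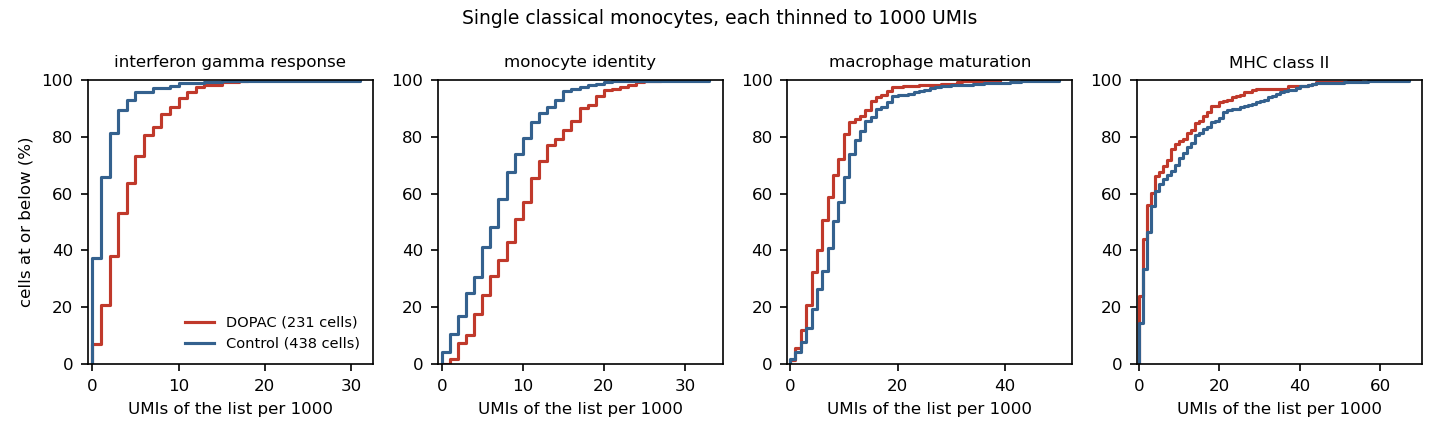
Cumulative share of single classical monocytes (vertical, in %) at or below a number of UMIs of a gene group per 1000 UMIs of the cell (horizontal), with 231 DOPAC cells in red and 438 Control cells in blue. The DOPAC line lies right of the Control line for the interferon gamma genes (medians 3 and 1) and the identity genes (medians 9 and 7), and left of it for most of the range of macrophage maturation (medians 6 and 8).

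Within the monocytes, the groups changed with how many of the 5 monocyte genes a cell had. The summed interferon gamma level was higher in DOPAC in every class: 3689 CPM against 1248 CPM in Control with 2 genes, 4522 CPM against 2017 CPM with 3, 4097 CPM against 1682 CPM with 4, and 3337 CPM against 1588 CPM with all 5. The summed MHC class II level was lower with more monocyte genes in both libraries. It stood at 1361 CPM in DOPAC (1122 to 1637) and 4839 CPM in Control (4723 to 4958) in cells with all 5, against 10240 CPM in DOPAC and 15540 CPM in Control in cells with 2. The identity genes ran the other way, with 12980 CPM in DOPAC and 9193 CPM in Control with all 5, against 8352 CPM and 3099 CPM with 2. The classes are formed by the 5 genes of the rule itself, so changes along them are given as a description. The number of genes found also depends on depth, which differed between the libraries, and only 19 DOPAC cells had all 5.

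**Figure D4:**
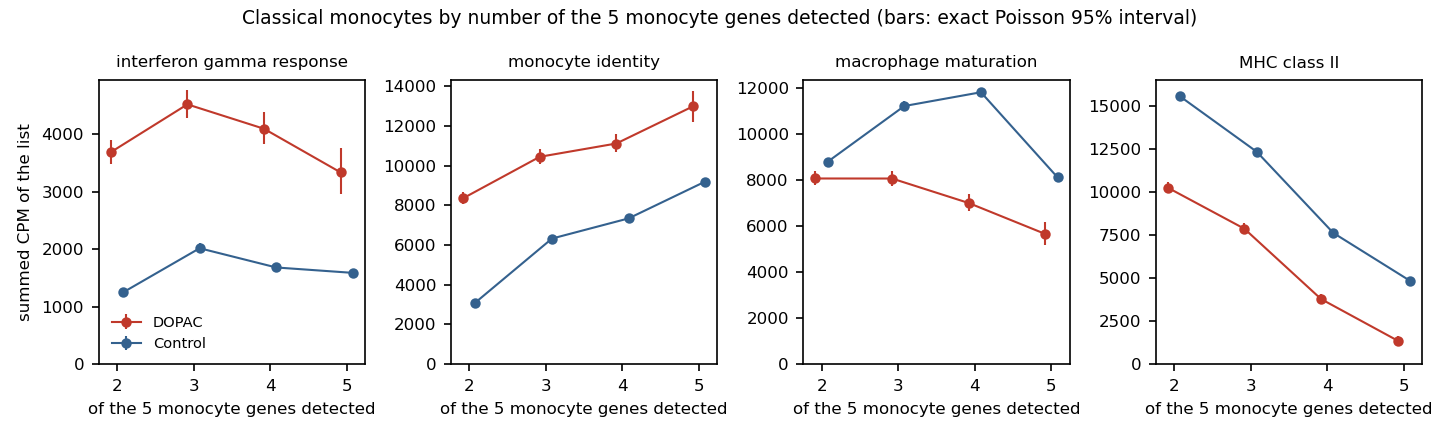
Summed CPM of 4 gene groups in classical monocytes with 2, 3, 4 or 5 of the monocyte genes detected, DOPAC in red and Control in blue, with exact Poisson 95% intervals. Interferon gamma genes are higher in DOPAC in each class (3689 against 1248 CPM with 2 genes), and MHC class II genes are lower with more monocyte genes in both libraries.

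The nearest classes were taken by like rules, and no difference between classes was tested. They were nonclassical monocytes (37 DOPAC and 54 Control cells), C1q-high macrophages (114 and 539) and Cd209a-positive dendritic cells (64 and 431). The interferon gamma genes were higher in DOPAC in all of these, with medians of 0.94, 1.93 and 1.48, beside 1.64 in classical monocytes, so the direction was not particular to classical monocytes. In T cells the median was 0.27 and in NK cells 0.46. The MHC class II genes differed in direction among the classes: the median was -0.54 in classical monocytes, -1.52 in nonclassical monocytes and -0.67 in Cd209a-positive dendritic cells, but 0.59 in C1q-high macrophages. Cd74 had 6183 CPM in DOPAC and 4791 CPM in Control in the last of these. The type I interferon median was -0.11 in nonclassical monocytes, 1.30 in C1q-high macrophages and 0.89 in the dendritic cells, beside 1.09 in classical monocytes. It was 0.16 in T cells and 1.15 in NK cells, so this rise was not confined to myeloid classes.

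**Figure D5:**
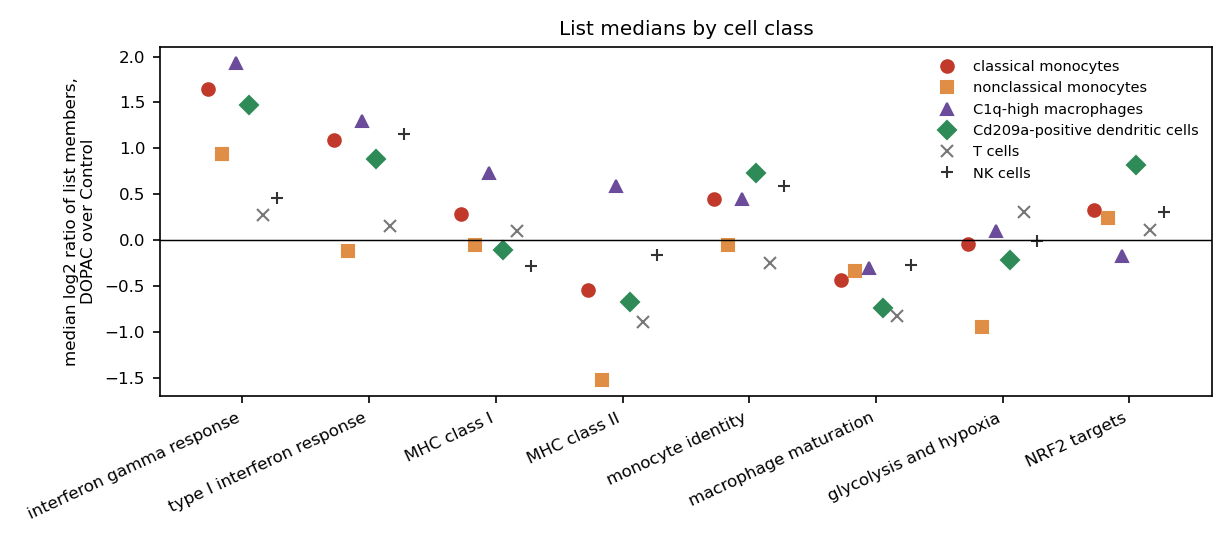
Median log2 ratio of DOPAC over Control over the members of 8 gene groups (horizontal) in 6 cell classes (symbols). Interferon gamma genes are above 0 in all 6 classes and highest in C1q-high macrophages (1.93) and classical monocytes (1.64), and MHC class II genes are above 0 only in C1q-high macrophages (0.59).

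Some genes stood higher in classical monocytes than in these 3 classes in both libraries, most of them by little. By the lower of the ratios in both libraries, the first were Ltb4r1, a receptor of leukotriene B4, Cxcl3, a chemokine, and Slpi, a protease inhibitor. Slpi had 670 CPM in DOPAC classical monocytes, against 194 CPM, 136 CPM and 10.1 CPM in DOPAC nonclassical monocytes, C1q-high macrophages and Cd209a-positive dendritic cells. In Control it had 637 CPM, against 404 CPM, 234 CPM and 62.0 CPM. The rest of the 15 highest were Dmkn, Tfec, Il1a, Ifi209, Arg2, Gab1, Prdx6, Il6, Ptgs2, Ccr2, Cxcl10 and Bst1. Only Ltb4r1, Cxcl3, Slpi and Dmkn stood at least 1.5-fold above the highest of these classes in both libraries. Each of the others stayed under that in at least 1 library. Cxcl10, for example, had log2 ratios over that class of 0.55 in DOPAC and 0.42 in Control. Il6 stood at 174 CPM in DOPAC classical monocytes and 30.6 CPM in DOPAC C1q-high macrophages, and in Control at 68.6 CPM and 49.8 CPM.

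Over all genes, the 15 at each end were read by log2 ratio among well-measured genes that were not library-wide. At the high end, 7 of the 15 belonged to the interferon lists (Irgm1, Igtp, Gbp2, Ifi47, Gbp4, Cmpk2 and Ifit2), and Slfn4, of the Schlafen family, had 312 CPM in DOPAC and 86.8 CPM in Control. Ccdc162 had 373 CPM in DOPAC and 41.4 CPM in Control and Tmem267 had 170 CPM and 17.2 CPM. Mmp13, a collagenase, had 67.7 CPM in DOPAC and 6.34 CPM in Control, with 71.9% and 59.4% of its UMIs in the 5 richest cells. Gzmb, the granzyme of killer cells, had 77.2 CPM in DOPAC and 8.72 CPM in Control, and stood at 1104 CPM and 132 CPM in the T cells. At the low end were Nhp2, of small nucleolar particles, with 22.2 CPM in DOPAC and 97.8 CPM in Control, Blnk, an adaptor of B-cell and myeloid signalling, with 25.4 CPM and 101 CPM, Fdps, of isoprenoid synthesis, with 57.1 CPM and 180 CPM, and Chst11, a sulfotransferase, with 79.3 CPM and 218 CPM. The other low genes were Snrpa, Snrpa1, Prmt1, Polr2e, Phb2, Tmem147, Pam, Mctp2, Srgap3, Ecm1 and Nudc, and all 15 rested on 13 to 75 UMIs in DOPAC. For Blnk, Mctp2 and Srgap3, the 5 richest of the Control cells held 55.6%, 58.0% and 51.4% of the Control UMIs. At the high end, Slc28a2, a nucleoside carrier, had 62.4 CPM in DOPAC and 17.4 CPM in Control, and Gvin1, an interferon-inducible GTPase, had 87.8 CPM and 25.4 CPM, which with Ccl8 completes the 15.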

How the data were processed

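The deposited files hold whole-number UMI counts per gene and barcode, which the authors obtained, per the file headers, from Cell Ranger 7.0.1 on GRCm38, per the submitters' processing notes. Other steps are not given in the sources used here. A barcode passed with 500 or more UMIs, 200 or more genes and mitochondrial UMIs of no more than 10%, and no doublet caller was used in the main analysis. The limits on C1q (3), Arg1 (5) and Cxcl9 (3) were read per 10000 UMIs of the barcode. UMIs were summed over the monocytes of a library and written as CPM, with exact Poisson intervals for levels, exact conditional binomial intervals for ratios, Clopper-Pearson intervals for shares and 1 count added for log2 ratios. Of 32285 gene IDs, 40 symbols had a second ID, and a symbol stands for the ID with most UMIs. The gated cells and gene lists were chosen with earlier results of these data known, so no list is independent support for its direction. Named by rule were up to 4 members per list with the largest log2 ratios, the genes of the rule, the 15 genes at each end with at least 50 CPM and 50 UMIs, and the 15 that most exceed like classes, while other genes were named for their known roles after their values were seen. A list's genes with under 20 UMIs were not compared. Gene positions came from GENCODE and promoters from RefSeq. The alternatives were other limits of the rule, thinned cells, other cell filters, Scrublet, means over single cells, centred ratios, other count minimums and 0.5 counts added. They used Python 3.11.15, NumPy 2.4.6, SciPy 1.17.1, pandas 2.3.3 and scanpy 1.11.5. The ratios and intervals were checked on simulated counts. Some named genes are not reported here.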

Additional observations from a re-analysis of the deposited data

Results flagged for a closer look

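Of the named genes, 9 lay at least 1.5-fold apart in opposite directions in classical monocytes and in a like class. The value given is the log2 ratio of DOPAC over Control in classical monocytes minus that in the other class, and no such difference was tested. Against nonclassical monocytes, with 37 DOPAC and 54 Control cells, it was 3.04 for Isg15, 2.80 for Serpina3g, 2.56 for Ifit1, 2.38 for Ccr1 and 1.85 for Il1rn. There it was -3.37 for Ear2 and -2.60 for Pecam1. Pecam1 in the nonclassical monocytes rested on 9 UMIs in DOPAC and 13 in Control. Its log2 ratio of -1.13 in classical monocytes was 0.80 with at least 3 of the 5 monocyte genes required. Isg15 in the nonclassical monocytes rested on 12 UMIs in DOPAC and 249 in Control, whereas Serpina3g, Ccr1 and Ifit1 rested on 4, 5 and 7 UMIs in DOPAC. Against C1q-high macrophages it was 1.98 for Il6, which rested there on 18 UMIs in DOPAC and 404 in Control. Against Cd209a-positive dendritic cells it was -5.7 for Folr2, from 7 DOPAC and 20 Control UMIs in those cells and 1 and 65 UMIs in classical monocytes.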

How the results depend on the processing

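The limits are 1 library per group and the lower depth of DOPAC, and since Control had 5043699 of the summed UMIs, against 945755 in DOPAC, a low gene mostly reached 20 UMIs through Control. No paired analysis was possible because each group is 1 library, and no replicate could be left out. The cause of the changes below was not tested. Of the 137 values of main results under alternatives, 116 were counted as the same, 20 as moved and 1, a share, as turned. A median that changed sign was not counted as turned. The cytokine median, 0.19 in the main analysis and -0.24 with at least 3 of the 5 genes, was counted as moved. The glycolysis median, -0.04 in the main analysis, reached 0.04 under an alternative counted as the same. The share of classical monocytes in DOPAC minus that in Control was -1.93 points with the limits on raw UMIs, -1.79 without cells holding UMIs of further lineage genes and 1.43 among cells of 3000 to 8000 UMIs. The interferon gamma median was 1.11 with the rule on thinned barcodes and 0.89 with rule and sums on thinned cells, and the identity median 0.12 and 0.23 there and 0.25 with the sums of thinned cells. The cytokine median was -0.24 with at least 3 of the 5 genes and 0.80 in cells of 3000 to 8000 UMIs, where the MHC class II median was -0.10 and that of NRF2 targets 0.75. The glycolysis median was -0.61 without cells holding UMIs of further lineage genes. Against 1318 genes higher in DOPAC, 641 were higher with thinned sums, 557 with at least 100 UMIs, 6125 with at least 1 UMI, 701 in cells of 3000 to 8000 UMIs and 635 with rule and sums thinned, in part because other numbers of genes could be compared. Against 2066 lower genes, 793 were lower with thinned sums, 1056 with at least 100 UMIs and 684 with both thinned. Scrublet marked 0.0% of DOPAC cells, so the 815 highest scores were removed, 14 of them monocytes, and in Control 339 cells, 9 of them monocytes. Leaving out the barcodes found in both libraries gave no value counted as turned. Some genes under the threshold changed sign without being counted, such as Socs1 (log2 ratios of -0.97 to 1.63) and Il1a (-0.73 to 0.79). Of the 58 gene values counted as turned, 14 turned only through the added count. Their CPM were equal or still lay the first way, as for genes with no UMI in either library. These are G0s2 with at least 3 of the 5 genes, Mki67, Pecam1 and Mcm2 without cells of further lineages, H2-Oa with thinned sums, S1pr1 at 3000 to 8000 UMIs, and Arg1, Fpr1, H2-Oa, Mcm2, Trem2, Comtd1, Mcm3 and C1qa with rule and sums thinned, and their direction is not read. With the limits read as raw UMIs, the log2 ratio turned for Mki67 (0.054) and Arg1 (0.55). With at least 3 of the 5 monocyte genes, the log2 ratio turned for Ccl8 (-1.77), H2-DMb2 (0.26), Pecam1 (0.80), Srgap3 (0.35), Mctp2 (0.63) and G0s2 (0.67). With the rule on thinned barcodes, the log2 ratio turned for Ccnb1 (-0.36), Fabp4 (-1.27), Bst1 (-0.013), Hspa1b (-0.44), Bnip3 (-0.026), Mki67 (0.22), Hspd1 (0.12), Gpnmb (0.077), Mcm6 (0.90) and Folr2 (0.39). With cells holding any UMI of further lineage genes left out, the log2 ratio turned for S1pr1 (-0.067), Fabp4 (-0.10), Hspa1b (-0.67), Bnip3 (-0.64), Mki67 (0.0085), Pecam1 (0.11), Mcm2 (1.63) and Mctp2 (0.31). With the sums of thinned cells, the log2 ratio turned for Fabp4 (-0.30), H2-Oa (0.34) and Mcm3 (1.92). In cells of 3000 to 8000 UMIs, the log2 ratio turned for Slc28a2 (-0.22), S1pr1 (-0.14), Slc2a3 (-0.37), H2-Q6 (-0.42), Cxcr4 (-0.37), Itgal (-0.45), Hspa1b (-1.13), Il10 (0.43), Ftl1 (0.16), Il1b (0.29), H2-DMb2 (0.049) and Pf4 (0.81). With rule and sums both on thinned cells, the log2 ratio turned for mt-Nd6 (-0.38), Fabp4 (-0.12), Hspa1b (-0.52), Bnip3 (-0.21), Arg1 (1.20), Fpr1 (0.20), Hspd1 (0.087), Pecam1 (0.72), Cd80 (0.16), Gpnmb (0.12), H2-Oa (0.20), Mcm2 (1.20), Trem2 (0.032), Comtd1 (0.20), Mcm3 (0.20), C1qa (1.20) and Mcm6 (2.79).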
